A study of Mus musculus with 4 samples.

Results

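Ribosome biogenesis factors are the nucleolar and nuclear proteins that make ribosomes without being part of the finished particle. A set of 42 such genes was followed here, chosen by name from knowledge of the pathway, and 41 of them had a probe set on the array that names no other gene, among 18193 genes measured in all. Where a gene had several probe sets, the brightest over the 4 arrays stood for it. The cells were haematopoietic stem cells (HSCs) from bone marrow of mice that carry a transgenic fusion of N-myc with the red fluorescent protein mCherry, and every sample carried this fusion. Cells negative for lineage markers and CD48 and positive for Sca-1, Kit and CD150 were parted by mCherry into 2 fractions, N-myc high and N-myc low, with no culture or treatment. Mouse 1 and mouse 2 each gave both fractions, for 2 arrays in a group. The sources used here give neither the strain nor the age of the mice.

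Ribosome production starts in the nucleolus, where RNA polymerase I copies the rDNA repeats into a long precursor. Small nucleolar RNPs (snoRNPs) modify the precursor, and large assemblies fold and cut it into the rRNAs of the small and the large subunit. MYC-family transcription factors, to which N-myc belongs, are known to activate many of these genes in dividing cells. The members were placed by known role in RNA polymerase I transcription (3 genes), snoRNPs (8), the small subunit (12), the large subunit (15) and a last group that acts at several steps (4). Mrto4, a large subunit factor, was the member left out, since its probe set names 3 genes. That shared probe set read 9.50 and 9.31 in N-myc high against 9.97 and 9.34 in N-myc low (log2 intensity, mouse 1 then mouse 2).

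MYC proteins bind the E-box, whose core letters are CACGTG, the same on both strands. RefSeq promoter windows (build GRCm38.p6, 250 bases before to 50 after a gene's start) were at hand for 37 of the 42 members, and 10 of them (27%) held this motif. Of the 14452 genes of the array with a window, 10.2% held it, as did 7.15% of all 32851 windows and 19 of the 117 other ribosome biogenesis genes with a window (16.2%). The motif lay before the start in Imp4 and Nop2 and past it in the other 8, namely Grwd1, Utp4, Ltv1, Utp20, Pes1, Mybbp1a, Tsr1 and Wdr43. Of these 10 members, both N-myc high arrays lay below both N-myc low arrays for 3 and above for 2. Among all genes they did so for 20.8% and 15.6%. The 5 sites below belong to these members without overlap. Each is printed 5′ to 3′ on the gene's own strand, with the motif in capitals.
Ltv1 (chr10:13193092-13193121, minus strand): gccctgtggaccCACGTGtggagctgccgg
Pes1 (chr11:3963965-3963994, plus strand): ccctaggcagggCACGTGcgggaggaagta
Imp4 (chr1:34439696-34439725, plus strand): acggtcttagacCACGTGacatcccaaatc
Nop2 (chr6:125131811-125131840, plus strand): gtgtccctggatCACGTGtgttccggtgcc
Grwd1 (chr7:45830740-45830767, minus strand): gggccggagtcgCACGTGtgaaaccgga
The 10 members with the motif had a median difference (N-myc high minus N-myc low) of 0.01 on the log2 scale, with 6 above and 4 below 0. The 26 measured members whose windows lacked it had a median of -0.03, with 11 above and 15 below 0. The 5 members with no window were Bop1, Rrp12, Rrs1, Npm1 and Fbl. The split thus leaves out the lowest differences of all members, Rrp12 (-0.85) and Bop1 (-0.69), and the highest, Rrs1 (0.49). A match describes the letters of the window and says nothing about binding.

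Mycn, the gene behind the sort, read 10.48 and 10.39 in N-myc high against 9.44 and 9.65 in N-myc low, and the fractions did not overlap. Of the genes of the sort, Kit read between 10.17 and 10.53 and Slamf1, which encodes CD150, between 8.01 and 8.99 over the 4 arrays, both with overlapping fractions. Cd48, whose protein the sort selected against, read 7.42 and 7.11 in N-myc high against 9.89 and 9.07 in N-myc low. Both arrays of mouse 1 read high for Xist (11.38 and 11.10, against 3.84 and 3.70 in mouse 2) and also carried the Y-linked Eif2s3y (8.53 and 8.43, against 9.40 and 9.67). Whether mouse 1 stands for a single animal or a pool was not determined, so the differences within each mouse are given beside the pooled ones. The deposited values were scaled so that array medians were close, from 5.26 to 5.32, and hold no absolute RNA amount per cell. In such bulk samples, fewer cells of a type and less RNA per cell cannot be told apart.

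The ribosome biogenesis factors as a group had a median difference of -0.03, the same as the -0.03 over all genes, with -0.08 for mouse 1 and -0.01 for mouse 2 taken alone. All 41 were at least as bright as the median gene, and over the genes that bright the median difference was 0.007. The shares of all genes given below include the dimmer genes. The members ranged from -0.85 (Rrp12) to 0.49 (Rrs1). In limma, 0 of 41 passed an adjusted p under 0.05, as did 0% of all genes (lowest adjusted p among the members = 0.779). Without adjustment, 3 members (7.32%) had a p under 0.05, where 6.31% of all genes did. The 3 were lower in N-myc high and 0 were higher, beside 2.78% and 3.53% of all genes. These were Rrp12, Ltv1 and Bop1. The count is 4 with the mean of a gene's probe sets (6.72% of all genes) and 4 with quantile normalisation (6.41%). It is 5 with each array centred on its median (6.61%). It is 0 with the mouse as a replicate block (6.04%), and likewise 0 when the hybridisation controls enter as a covariate (7.37%). These controls, which are spiked into each sample, read 10.85 and 10.81 in N-myc high against 11.05 and 11.67 in N-myc low. With an array left out, a group has no replicate, so no count is given for those fits.

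Both N-myc high arrays lay below both N-myc low arrays for 12 members (29.3%), where 20.8% of all genes did. They lay above for 7 members (17.1%), where 15.6% of all genes did. The 12 were Fbl, Gar1, Nhp2, Rrp12, Ltv1, Noc4l, Imp4, Pes1, Bop1, Wdr12, Ppan and Gnl3, and the 7 were Rrp9, Dkc1, Nop2, Rrp1b, Grwd1, Ncl and Pa2g4. The difference had the same sign in both mice for 28 of the 41 members (68.3%), 15 lower and 13 higher, and for 53.0% of all genes. For 23 of the 41 the difference was smaller than its standard error (SE, from the limma fit), as it was for 10556 of all 18193 genes. The plot of differences by step shows that members on either side of 0 occur in every step.

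**Figure D1:**
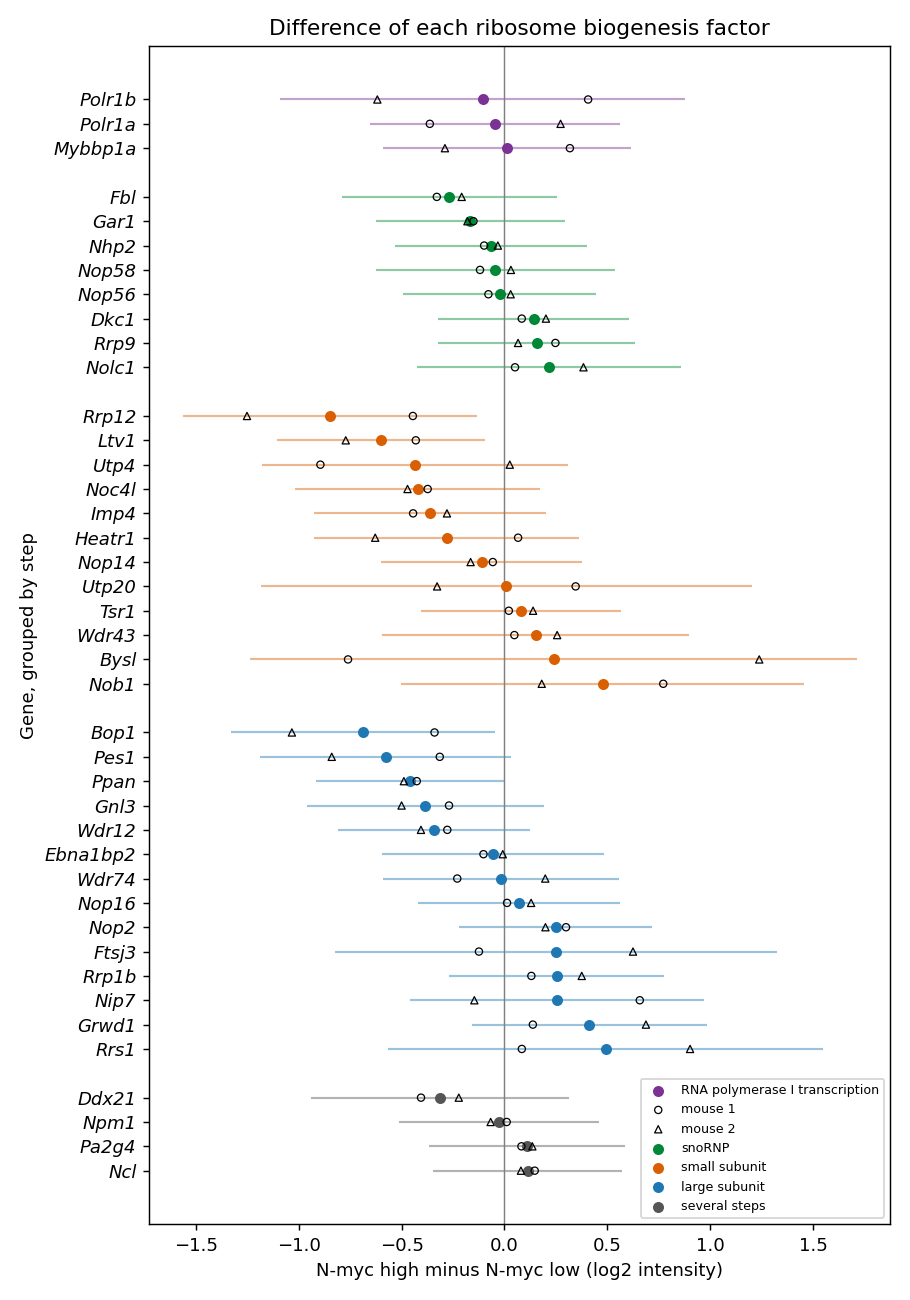
Difference between the N-myc high and the N-myc low fraction for each of the 41 measured factors, in log2 intensity on the x axis, grouped by step on the y axis. Filled points are the pooled difference with its 95% confidence interval from limma, and open circles and triangles are the differences in mouse 1 and mouse 2. Among the filled points, Rrp12 (-0.85) and Bop1 (-0.69) lie farthest to the left and Rrs1 (0.49) farthest to the right, while the triangle of Bysl (1.24) lies beyond them, and 0 members passed the adjusted threshold.

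The 3 members of RNA polymerase I transcription had a median difference of -0.05, and each had opposite signs in the mice. Polr1a, the largest subunit of the polymerase, read 7.75 and 8.12 in N-myc high against 8.11 and 7.84 in N-myc low (mouse 1 then mouse 2, here and below). Its difference was -0.05 with an SE of 0.23, and the 95% confidence interval ran from -0.65 to 0.56. Polr1b, the other large subunit of the catalytic core, read 7.13 and 7.09 in N-myc high, with 6.72 and 7.70 in N-myc low. The N-myc low arrays of Polr1b thus lay on both sides of the N-myc high arrays, and the difference was 0.41 in mouse 1 and -0.62 in mouse 2. Mybbp1a, a nucleolar protein that associates with the polymerase, read 11.22 and 11.00 against 10.91 and 11.29, a difference of 0.01 that turned to -0.04 with each array centred on its median and to -0.01 with quantile normalisation. The fractions overlapped for all 3 genes.

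Among the 8 snoRNP members the median difference was -0.03, with 3 lower and 2 higher without overlap, beside 20.8% and 15.6% of all genes. Fbl, the methyltransferase of box C/D snoRNPs, read 11.63 and 11.50 in N-myc high against 11.96 and 11.70 in N-myc low. Both N-myc high arrays of Fbl were lower, by -0.33 in mouse 1 and -0.21 in mouse 2, and the pooled difference of -0.27 (SE 0.20) had a limma adjusted p of 0.832. Nop56 and Nop58, the scaffold proteins that hold Fbl on the guide RNA, differed by -0.02 and -0.04, with overlapping fractions. Of these 3 core genes of the box C/D particle, only Fbl was thus separated. Snu13, the fourth core protein, had no value here.

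The H/ACA snoRNPs, which turn uridine in rRNA into pseudouridine, lay on both sides of 0. Of 3 core genes among the members, Gar1 and Nhp2 were lower and Dkc1 higher, each without overlap, and each differed by less than its SE. Nop10, the fourth core gene, is not a member and was lower without overlap, with a difference of -0.14 (SE 0.18). Its other probe set gave -0.12. Gar1 read 9.87 in both N-myc high arrays and 10.03 and 10.05 in N-myc low, which is a narrow spread within each fraction and a difference of -0.17 (SE 0.17, limma adjusted p = 0.879). Nhp2 had a difference of -0.07. Dkc1, the pseudouridine synthase itself, went the other way with 11.74 and 11.76 in N-myc high against 11.65 and 11.56 in N-myc low, a difference of 0.14 (SE 0.17). Nolc1, a chaperone that escorts both kinds of snoRNP, read 9.19 and 9.03 against 9.14 and 8.65. Its difference of 0.22 had an SE of 0.24, and its fractions overlapped. Rrp9, a protein particular to the U3 snoRNP, was higher by 0.16 (SE 0.18) without overlap.

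The 12 small subunit members had the lowest median of the steps, -0.20, with -0.22 in mouse 1 and -0.22 in mouse 2. It stayed below 0 under each alternative run and was -0.05 when a gene's probe sets were averaged, where RNA polymerase I transcription (-0.11), the group of several steps (-0.09) and the large subunit (-0.09) stood lower. Both N-myc high arrays lay below both N-myc low arrays for 4 of the 12 members and above for 0, beside 20.8% and 15.6% of all genes. At an unadjusted p under 0.05, 2 were lower and 0 higher, beside 2.78% and 3.53% of all genes. The other 8 overlapped.

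Rrp12, a repeat protein needed for the export of pre-ribosomes from the nucleus, read 6.91 and 6.33 in N-myc high against 7.36 and 7.58 in N-myc low. All readings of N-myc high were lower, with a difference of -0.45 in mouse 1 and -1.25 in mouse 2. The pooled difference of -0.85 (SE 0.27) is 1.80-fold and had a limma adjusted p of 0.779. Ltv1, which rides on the maturing small subunit until it is released late in assembly, read 8.09 and 7.89 in N-myc high against 8.52 and 8.66 in N-myc low. The N-myc high arrays were again the lower ones, and the difference of -0.60 (SE 0.19) is 1.52-fold with a limma adjusted p of 0.779. Ltv1 had the narrower range over the alternatives, from -0.70 to -0.47, against -1.14 to -0.56 for Rrp12. Both genes rest on 1 probe set.

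Noc4l, a partner of Nop14 in the early small subunit particle, read 10.41 and 10.06 in N-myc high against 10.79 and 10.53 in N-myc low, a difference of -0.42 (SE 0.22, limma adjusted p = 0.806). Among the 3 further Noc4l probe sets, 2 ran the other way. Imp4, a protein that binds the U3 snoRNA, read 9.02 and 9.36 in N-myc high against 9.47 and 9.63 in N-myc low. Its difference of -0.36 (SE 0.21) again had the N-myc high arrays lower. Of its 2 other probe sets, 1 gave -0.09, with opposite signs in the mice. The last gave 0.38 but read between 4.20 and 5.17, below the array medians, so no direction was read from it. Averaging the Imp4 probe sets gave -0.02. Nop14 itself differed by -0.11.

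The remaining small subunit factors gave mixed readings. Utp4, a subunit of the early complex that also serves rDNA transcription, had a difference of -0.43 that came from mouse 1 alone (-0.89, against 0.03 in mouse 2). Heatr1, a large scaffold of the same complex, gave -0.28, with 0.07 in mouse 1 and -0.63 in mouse 2. Nob1, the nuclease that makes the last cut of the small subunit rRNA, had the highest difference of the step with 0.48 (SE 0.37), and its fractions overlapped. Bysl, a factor of late small subunit assembly, read 6.92 and 8.43 in N-myc high against 7.68 and 7.19 in N-myc low. Its difference had opposite signs in the mice, -0.76 in mouse 1 and 1.24 in mouse 2, and its SE of 0.55 was the widest among the members. Wdr43 (0.15), Tsr1 (0.08) and Utp20 (0.01) differed by less than their SE, and the sign of Utp20 turned under both other scalings.

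The 14 measured large subunit members had a median difference of 0.03 (-0.11 in mouse 1, 0.06 in mouse 2). That median was -0.02 with each array centred on its median. At an unadjusted p under 0.05, 1 was lower and 0 higher, beside 2.78% and 3.53% of all genes. Without overlap, 5 were lower and 3 higher, beside 20.8% and 15.6% of all genes.

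Pes1, Bop1 and Wdr12 form the PeBoW complex, a trimer needed to process the large subunit rRNA. They were set apart here as a complex after their values were seen. Pes1 read 8.74 and 8.67 in N-myc high against 9.05 and 9.51 in N-myc low. Bop1 read 8.77 and 8.52 in N-myc high against 9.11 and 9.55 in N-myc low. Wdr12 read 9.52 and 9.50 in N-myc high against 9.80 and 9.91 in N-myc low. In each of the 3 genes both N-myc high arrays were lower than both N-myc low arrays, and the gap was wider in mouse 2. The pooled differences were -0.58 (SE 0.23) for Pes1, -0.69 (SE 0.24) for Bop1 and -0.34 (SE 0.18) for Wdr12, and the limma adjusted p values were 0.781, 0.779 and 0.806. Of their dimmer probe sets, the second of Wdr12 (6.66 to 7.41) gave -0.35. The other Pes1 probe set had opposite signs in the mice, with 5.40 and 4.41 in N-myc high against 3.73 and 6.39 in N-myc low. The other Bop1 probe set and the third of Wdr12 read between 2.05 and 3.04, below the array medians, and no direction was read from them. Of these 3 genes, Wdr12 had the narrowest range over the alternatives, from -0.40 to -0.25, against -0.80 to -0.19 for Pes1 and -0.91 to -0.30 for Bop1.

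**Figure D2:**
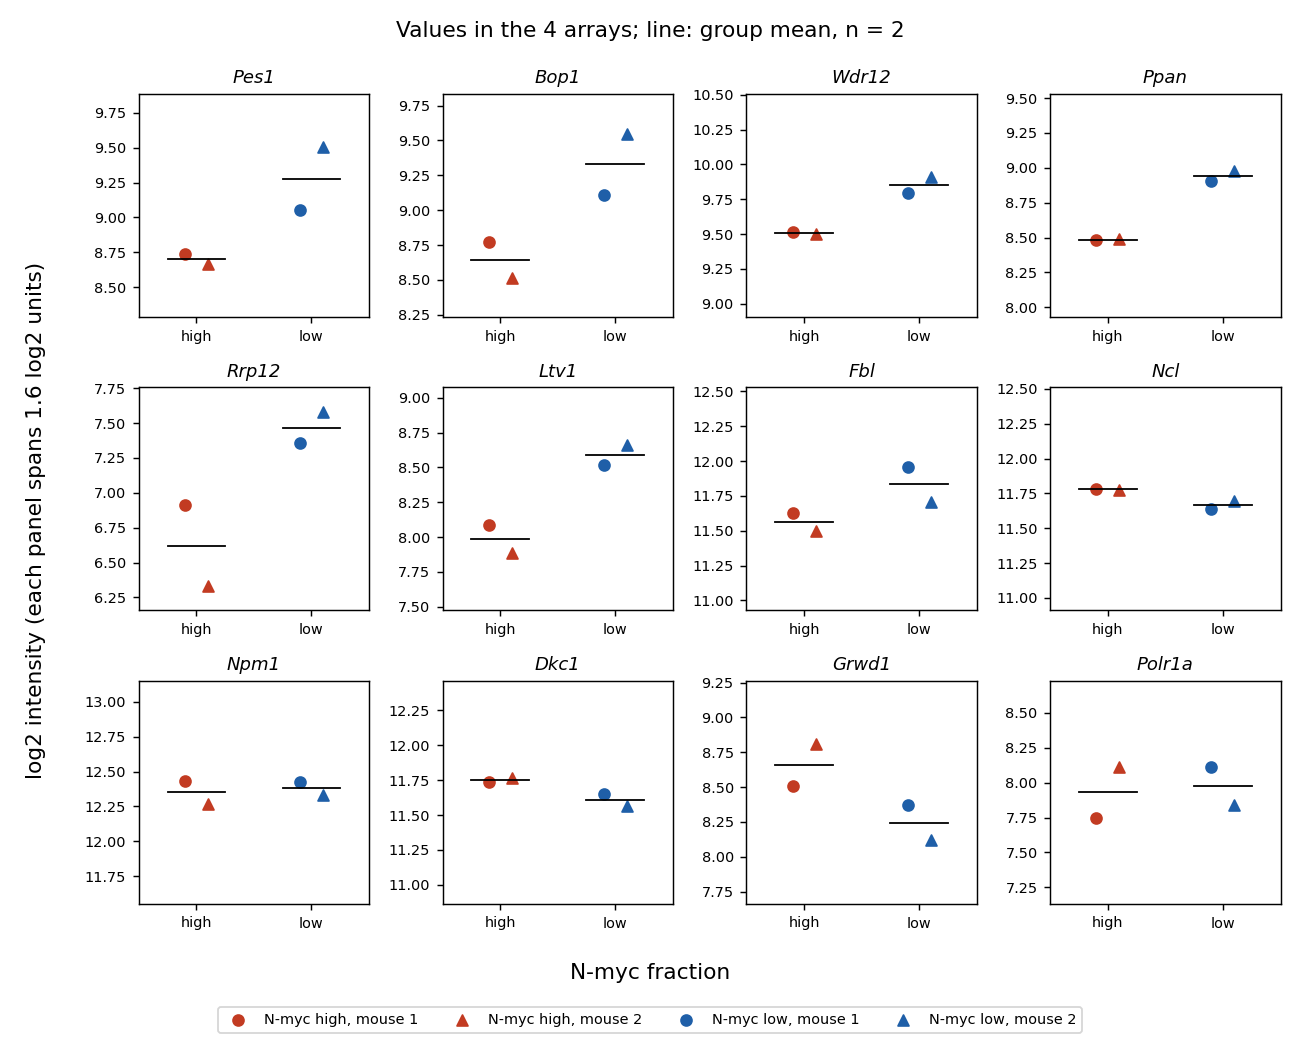
Values of 12 factors in each array, in log2 intensity on the y axis, with N-myc high in red and N-myc low in blue, circles for mouse 1, triangles for mouse 2 and a line at each group mean (n = 2). Each panel spans the same height, so gaps can be compared. The N-myc high arrays are the lower pair for the PeBoW genes, Ppan, Rrp12, Ltv1 and Fbl, the higher pair for Ncl, Dkc1 and Grwd1, and overlap N-myc low for Npm1 and Polr1a. For Ncl the order turned with the mean of its probe sets.

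Ppan, a nucleolar factor of early large subunit particles, read 8.48 and 8.49 in N-myc high against 8.91 and 8.98 in N-myc low. The arrays of a fraction lay close together and those of N-myc high were the lower pair, with a difference of -0.46 (SE 0.17, limma adjusted p = 0.779). The difference of Ppan was -0.43 in mouse 1 and -0.49 in mouse 2, and it ranged from -0.51 to -0.40 over the alternatives. Gnl3, the GTP-binding protein nucleostemin that is abundant in stem and dividing cells, read 10.47 and 10.10 in N-myc high against 10.74 and 10.60 in N-myc low. The N-myc high arrays were lower here too, with a difference of -0.38 (SE 0.22, limma adjusted p = 0.809). Both genes rest on 1 probe set.

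Large subunit factors with higher values in N-myc high were Nop2, Rrp1b and Grwd1. Nop2, an rRNA methyltransferase, read 8.995 and 9.01 in N-myc high against 8.70 and 8.81 in N-myc low, a difference of 0.25 (SE 0.18, limma adjusted p = 0.829). Grwd1, a chaperone of a large subunit protein, read 8.51 and 8.81 against 8.37 and 8.12, with both N-myc high arrays the higher ones. Its difference of 0.41 (SE 0.22) had a limma adjusted p of 0.806, and both of its other probe sets had the same sign. Rrp1b, a nucleolar cofactor of rRNA processing, was higher by 0.25 (SE 0.20), with 0.01 and -0.02 from its other probe sets. Rrs1, which helps place the 5S particle in the large subunit, had the highest difference of all members with 0.49 (SE 0.40). The Rrs1 value rested on the N-myc low array of mouse 2, which read 8.20 beside 9.25 in mouse 1, with 9.33 and 9.10 in N-myc high. Without that array the Rrs1 difference was -0.03, and its other probe set gave -0.80. Nip7 (0.26), Ftsj3 (0.25), Nop16 (0.07), Wdr74 (-0.02) and Ebna1bp2 (-0.06) had overlapping fractions.

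The members that act at several steps include the most abundant nucleolar proteins. Ncl, nucleolin, which binds rRNA precursors and chromatin of rDNA, read 11.78 in both N-myc high arrays and 11.64 and 11.70 in N-myc low. Its difference of 0.11 (SE 0.17) had a 95% confidence interval from -0.35 to 0.57. Ncl was below 0 on all 4 of its other probe sets, from -0.52 to -0.07, and averaging its probe sets gave a difference of -0.18. Npm1, nucleophosmin, a chaperone that shuttles between nucleolus and cytoplasm, read 12.43 and 12.27 in N-myc high against 12.42 and 12.34 in N-myc low. Its fractions overlapped, and the difference of -0.03 (SE 0.18) had an interval from -0.51 to 0.46, with 0.01 after quantile normalisation. Ddx21, a helicase that links rDNA transcription to processing, read 9.77 and 9.53 against 10.17 and 9.75. Its difference of -0.31 (SE 0.24) was below 0 in both mice, but the fractions overlapped. Pa2g4, a growth-regulated protein found on pre-ribosomes, read 12.08 and 12.01 in N-myc high against 12.001 and 11.87 in N-myc low, a difference of 0.11 (SE 0.18).

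Agreement between the mice differed by gene. The 15 members lower in both mice included the PeBoW genes, Ppan, Gnl3, Rrp12, Ltv1, Noc4l and Imp4, and 13 members had opposite signs in the mice. Of the 26 members with more than 1 probe set, 15 had the same sign in all of them and 11 did not. This count takes in probe sets below the array medians, from which no direction can be read. Bop1 and Ebna1bp2 count as agreeing, and Polr1a as not, only through probe sets that read between 1.85 and 3.50. Imp4 counts as not agreeing only through a probe set that read between 4.20 and 5.17, with opposite signs in the mice. Pes1 counts as agreeing through a probe set with opposite signs in the mice. The sign of the difference was the same under all 11 alternatives for 22 of the 41 members, 15 of them lower and 7 higher. This sign was kept by each of the 12 members that were lower without overlap and by 6 of the 7 that were higher, Ncl being the exception. For members without overlap, leaving an array out could not turn the sign. The replicate block, a trended and robust prior and a fit without the dimmer genes leave every difference unchanged. Only the probe set mean, for genes with more than 1 probe set, the other scalings and the covariate could turn it.

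**Figure D3:**
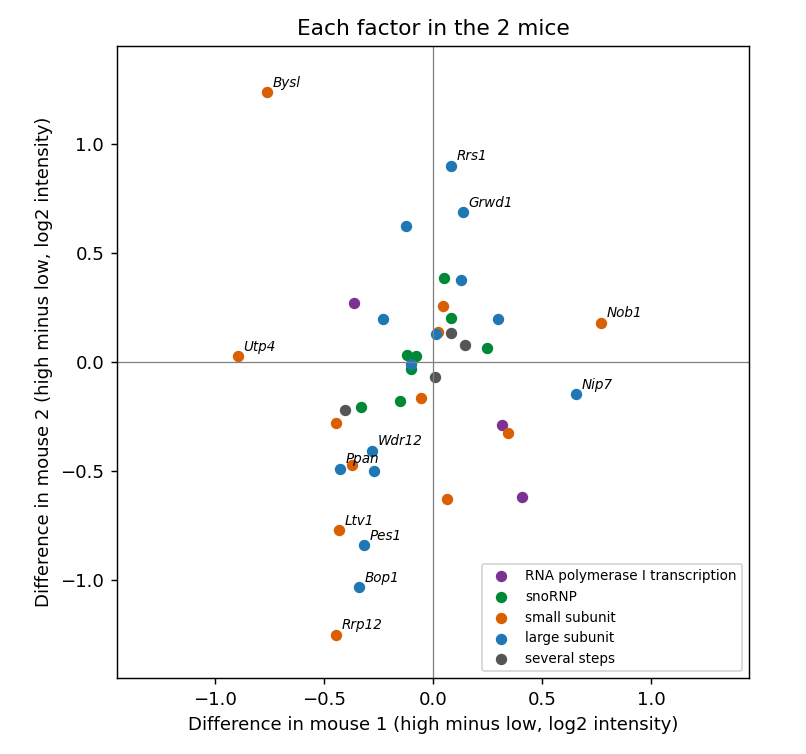
Difference between N-myc high and N-myc low in mouse 1 (x axis) against mouse 2 (y axis) for each of the 41 factors, in log2 intensity, coloured by step. Rrp12, Bop1, Pes1, Ltv1, Ppan and Wdr12 lie in the lower left, below 0 in both mice, while Bysl (-0.76 and 1.24) lies at the upper left with opposite signs.

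A wider list of 146 other ribosome biogenesis genes, written from knowledge of the pathway, had 140 measured. Their median difference was -0.04, and 0 passed the adjusted threshold in limma. An unadjusted p under 0.05 was reached by 2 genes on the higher and 3 on the lower side, or 1.43% and 2.14%, where 3.53% and 2.78% of all genes did. By step, the medians were 0.07 for RNA polymerase I transcription (17 measured), -0.07 for snoRNPs (9), 0.01 for the small subunit (46), -0.01 for the large subunit (49) and -0.12 for the nucleases that trim rRNA (19). The 46 other small subunit genes thus stood at 0.01 beside -0.20 for the 12 members of that step; this difference was not tested.

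RNA polymerase I genes of the wider list lay on both sides. Tcof1, treacle, which keeps rDNA active, differed by -0.64 (SE 0.18, limma adjusted p = 0.769), and Taf1b, a subunit of the promoter selectivity factor, by -0.64 (SE 0.21). Rrn3, the factor that makes the polymerase competent to start, gave 0.71 (SE 0.30), and Polr2h, a subunit shared by the nuclear RNA polymerases, gave 0.64 (SE 0.27). Of the large subunit genes, Mak16 gave -0.71 (SE 0.23) and Spata5 -0.55 (SE 0.21), with 1 of 3 other Spata5 probe sets at 1.11, while the helicase gene Ddx31 gave 0.66 (SE 0.24) and Zfp622 0.63 (SE 0.24), although Zfp622 was below 0 on its other 4 probe sets. The small subunit kinase gene Riok1 gave -0.49 (SE 0.20), with 2 of its 4 other probe sets above 0. Exosc8, of the RNA exosome, gave 0.44 (SE 0.18), and its other probe set -0.31. The same sign in both mice was part of the rule by which these 10 genes were chosen.

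**Figure D4:**
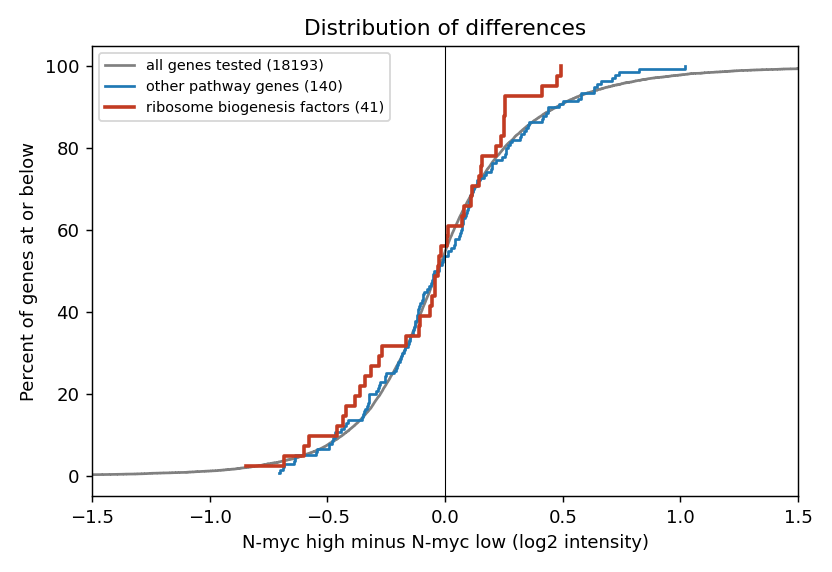
Cumulative share of genes (y axis, percent) at or below a given difference between N-myc high and N-myc low (x axis, log2 intensity) for the 41 factors, the 140 other pathway genes and all 18193 genes tested. The 3 curves cross 50% close to each other, at medians of -0.03, -0.04 and -0.03.

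Marker lists of stem cells and other cells were read beside these values, and 20.8% of all genes were lower and 15.6% higher without overlap. Of 10 stem cell genes, 8 were measured, and 4 were higher and 1 lower without overlap, with a median difference of 0.92. The 4 were Procr (1.19), Fgd5 (1.58), Mecom (1.05) and Hlf (0.79), and the lower gene was Cd34 (-0.55). Kit, Slamf1 and Hoxb5 overlapped. The other probe sets of Mecom gave 0.04 and 0.08, and that of Hlf gave 0.11. Of 5 multipotent progenitor genes, 4 were lower and 1, Flt3, higher by 1.204 without overlap, and the log2 of their summed intensity was 11.39 to 11.51 in N-myc high against 12.14 to 12.40 in N-myc low. Of 7 granulocyte and monocyte genes, 7 were lower without overlap (14.66 to 14.76 against 14.91 to 14.94), with a median difference of -0.30. Of 7 cycling genes, 5 were lower without overlap and the median was -0.18, with summed levels of 12.65 to 12.72 against 12.72 to 12.92 that overlapped. Erythroid genes had 2 of 5 lower without overlap, and their summed levels overlapped (10.97 to 11.23 against 11.21 to 11.71), as did those of the B cell list (7.51 to 8.26 against 7.99 to 8.04), with 1 of 5 higher. The macrophage list had 2 of 6 higher (9.28 to 9.34 against 8.09 to 8.67). That sum followed C1qb, which differed by 2.66, the gene with the lowest p of all, while C1qa, C1qc, Adgre1 and Cd68 overlapped. The T and NK cell list had 1 higher and 1 lower of 4 (5.61 to 5.69 against 5.92 to 6.09). All 4 of these genes, and Cd79a, the higher gene of the B cell list, read below the array medians, so no direction can be read from them. The genes named from these lists were chosen after their values were seen. These intensities have no zero and no detection call was used, so no marker can be called absent. The sort selected against lineage markers and CD48 as proteins, while these lists read RNA. Cd48 is 1 of the 4 lower multipotent progenitor genes, with a difference of -2.21. The part of other cells in the lower values of Rrp12, Ltv1, Ppan and the PeBoW genes was not tested.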

How the data were processed

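NuGEN Ovation reagents amplified and biotin-labelled 5 ng of RNA per sample, per the labels' protocols. The deposited values are log2 intensities per probe set, made by the authors with RMA. The submitters' processing notes name RMA, affy and limma, with no version. RMA equalises the arrays, so a shift shared by all genes is removed. The chip definition and any filter were not given in the sources used here. Of 45101 probe sets, 34945 carried 1 gene name, 932 several and 9160 none here, and 64 were controls. Names came from the platform annotation, of which 34741 probe sets were found in RefSeq by Entrez number.

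All 18193 genes were fitted in R 4.3.3 with limma 3.58.1 (lmFit, eBayes) with no filter, p values were adjusted by Benjamini-Hochberg over all of them, and the script was tested on simulated data. Precision is limited by the number of arrays, and the smallest two-sided p of an exact permutation test of 2 against 2 arrays is 0.333. The labels give the mouse of each array, and same-numbered arrays were read as 1 source. Their deviations from the group means correlated at r = 0.0492 across genes. The main fit leaves the mouse out, and the blocked fit is an alternative.

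The members, the steps, the wider list and the marker lists were chosen with earlier results of these data known. Values of each array are given for members at an unadjusted p under 0.05, for the 3 with the smallest p in each step, and for Ncl, Npm1, Fbl and Polr1a. Of the wider list, the 5 with the smallest p in each direction and the same sign in both mice are named, and Nop10 is given beside the H/ACA members. Other values by array, those of Kit, Slamf1, Cd48, Wdr12, Gnl3, Dkc1, Imp4, Bysl, Nop2, Grwd1 and Rrs1 among them, were chosen after they were seen.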

Additional observations from a re-analysis of the deposited data

How the results depend on the processing

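With the mouse as a replicate block, 0 members were called at the adjusted threshold and 0 lay at an unadjusted p under 0.05, against 3 without it, and the differences themselves did not change. No member was called under any alternative that kept all 4 arrays. Over the 11 alternatives, 412 of the 451 member differences moved by less than the spread between replicates. For several alternatives this was fixed in advance. The replicate block, the trended and robust prior and the fit without the dimmer genes leave each difference unchanged. Leaving an array out cannot move a difference beyond that spread. The 39 larger moves thus came from the probe set mean, the other scalings or the covariate. The count at an unadjusted p, added after the data were seen, was 5 with each array centred on its median, 1 with a trended and robust prior, 0 with the hybridisation controls as a covariate and 0 to 3 with an array left out. Members above N-myc low without overlap numbered 4 with the mean of probe sets, in place of 7, and 10 to 16 with an array left out, while those below numbered 16 to 19, since fewer arrays overlap less. The median of all members was -0.19 with the covariate and -0.13 to 0.049 with an array left out. With the covariate the step medians were 0.35 (RNA polymerase I), -0.14 (snoRNP), -0.28 (small subunit), -0.26 (large subunit) and -0.045 (several steps). With the mean of probe sets the small subunit was at -0.054, the large subunit at -0.086 and the last group at -0.090. With each array centred, snoRNPs were at -0.085, the small subunit at -0.25 and the last group at -0.011. With an array left out, the medians ran from -0.18 to 0.21 for RNA polymerase I, -0.069 to 0.085 for snoRNPs, -0.22 to -0.18 for the small subunit, -0.20 to 0.16 for the large subunit, -0.020 to 0.086 for the last group and -0.10 to 0.051 for the other pathway genes. The causes of these moves were not tested.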
